A study of Mus musculus with 71 samples.

Results

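Sleep deprivation of AKR/J mice that ended at ZT0, the onset of light, was compared with undisturbed AKR/J controls killed at the same time. The comparison used 6 of the 71 arrays of the study, chosen by their labels: 3 of sleep-deprived AKR/J at ZT0 and 3 of AKR/J controls at ZT0. AKR/J is an inbred laboratory strain, and ZT (zeitgeber time) counts hours from light onset. The sleep-deprived mice had been kept awake for 6 h from ZT18, the middle of the dark, which is the active phase of a mouse, and the controls had stayed in their home cages. All were male, 12 to 13 weeks old, with no genetic change or drug named. Each array was hybridised with whole-brain RNA pooled from 3 mice, and the design names 9 mice a group, so the 3 arrays of a group stand for separate pools. The spread behind each p-value is that of pools, not of single mice. The rest of the study repeated this design at ZT6, ZT12 and ZT18 and in the inbred strains C57BL/6J and DBA/2J, 24 groups in all, of which sleep-deprived AKR/J at ZT18 held 2 arrays here and the others 3.

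In waking cortex and other forebrain areas, neuronal firing switches on immediate early genes. Some code for transcription factors, such as Egr3 and Npas4, and others for proteins that act at synapses, such as Homer1 and Arc. Prolonged waking is also known to raise chaperones of the endoplasmic reticulum (ER) and of the cytosol, which fold newly made proteins and hold damaged ones. In the unfolded protein response, the ER chaperone Hspa5 (BiP) and the transcription factor Xbp1 are raised when folding in the ER falls behind. Mice are mostly awake in the dark, so undisturbed mice killed at light onset normally come from a night of activity.

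Expression is given on the log2 scale for each probe set, a group of short probes for 1 transcript, and 1 unit is a 2-fold difference. Values ran from 2.69 to 14.8, and array medians from 5.65 to 5.71. Pairs of the 6 arrays correlated at 0.993 to 0.998 across probe sets. The number of arrays, 3 a group, limits the precision. 2 arrays stood apart. Control replicate 3 was 1 of 6 arrays in the study, from 5 groups, that lay apart on the control probe sets of the array. Its array weight (limma's estimate of relative precision) was 0.388 against 0.916 and 1.29 in the other controls. Replicate 3 of the AKR/J controls at ZT6 was another, as was replicate 3 of both C57BL/6J groups at ZT0. The comparisons with these groups below thus also hold such arrays. In AKR/J at ZT0, sleep-deprived replicate 2 had little signal for pituitary hormones. The Gh value (growth hormone, probe set 1460310_a_at) was 12.2, 12.1 and 12.2 in the controls, and 11.3, 4.87 and 10.98 in the sleep-deprived arrays. The fitted Gh difference was -3.12 ± 1.79 (standard error; limma, adjusted p = 0.53). Prl (prolactin) read 8.97, 8.73 and 9.55 in the controls against 8.31, 4.66 and 8.28, and Cga, the shared subunit of other pituitary hormones, 8.99, 8.79 and 8.94 against 8.18, 5.17 and 7.76. All 6 measured pituitary markers were lower on average in the sleep-deprived arrays (median -1.35), none was called, and their mean level per array was 8.19 to 8.67 in controls and 5.17 to 8.04 after sleep loss. Less pituitary tissue in a pool and less hormone RNA per cell cannot be told apart in such data.

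**Figure D1:**
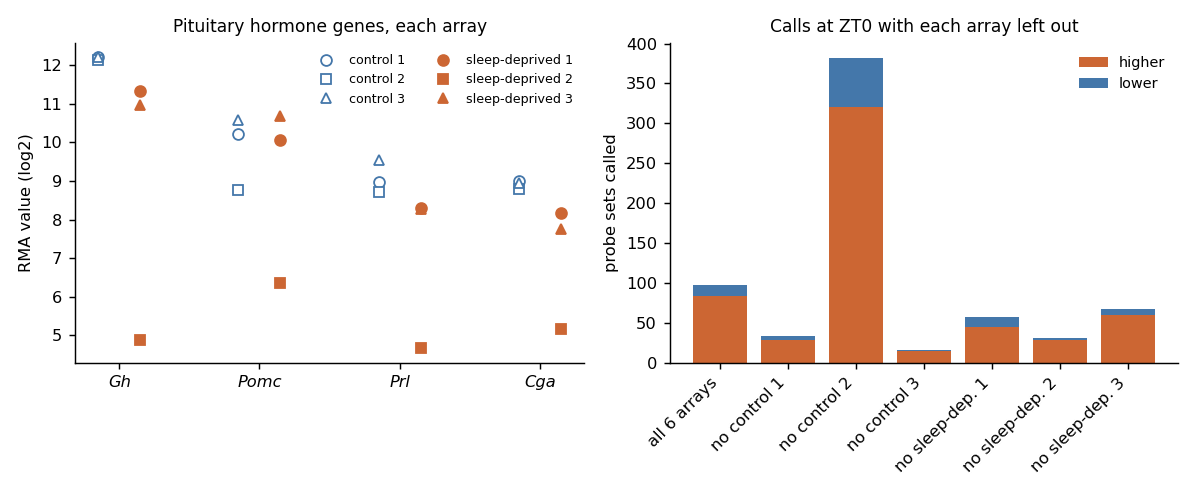
Left, log2 values of 4 pituitary hormone genes in each of the 6 arrays (open, control; filled, sleep-deprived; shape, replicate number), with sleep-deprived replicate 2 lowest for all 4. Right, the number of probe sets called higher or lower between the groups with all 6 arrays (97) and with each array left out in turn (16 to 382).

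Sleep loss that ended at ZT0 gave few called differences, and most were rises. Of 45037 probe sets, 97 passed an adjusted p of 0.05 (limma with Benjamini-Hochberg adjustment over all of them, 0.215% called), 84 higher (0.187%) and 13 lower (0.0289%) after sleep loss. They named 83 genes. Their median size was 0.42 on the log2 scale, a 1.33-fold difference, and 4926 probe sets had an unadjusted p under 0.05. In all 97 the 3 sleep-deprived values lay wholly above or below the 3 control values, which was so for 13.8% of all probe sets. The count rested on single arrays: it was 16 without control replicate 3, 31 without sleep-deprived replicate 2, 33 without control replicate 1, 57 without sleep-deprived replicate 1, 67 without sleep-deprived replicate 3 and 382 without control replicate 2. It was 16 without both arrays that stood apart, 1 (Homer1) when the spread was estimated from these 6 arrays alone, and 45 after quantile normalization. All 97 kept their direction with any of the 6 arrays left out. 13 of the 97 also kept their call with any 1 of the 6 left out: 2 probe sets each of Homer1, Hspa5 and Xbp1, and 1 each of Creld2, Manf, Pdia6, Egr3, Bdnf, Dclk1 and Errfi1. The other 84 calls were each lost without at least 1 array. Of the 97, 14 were kept without control replicate 3, 30 without control replicate 1 and 87 without control replicate 2, and 39, 28 and 52 without sleep-deprived replicates 1, 2 and 3.

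**Figure D2:**
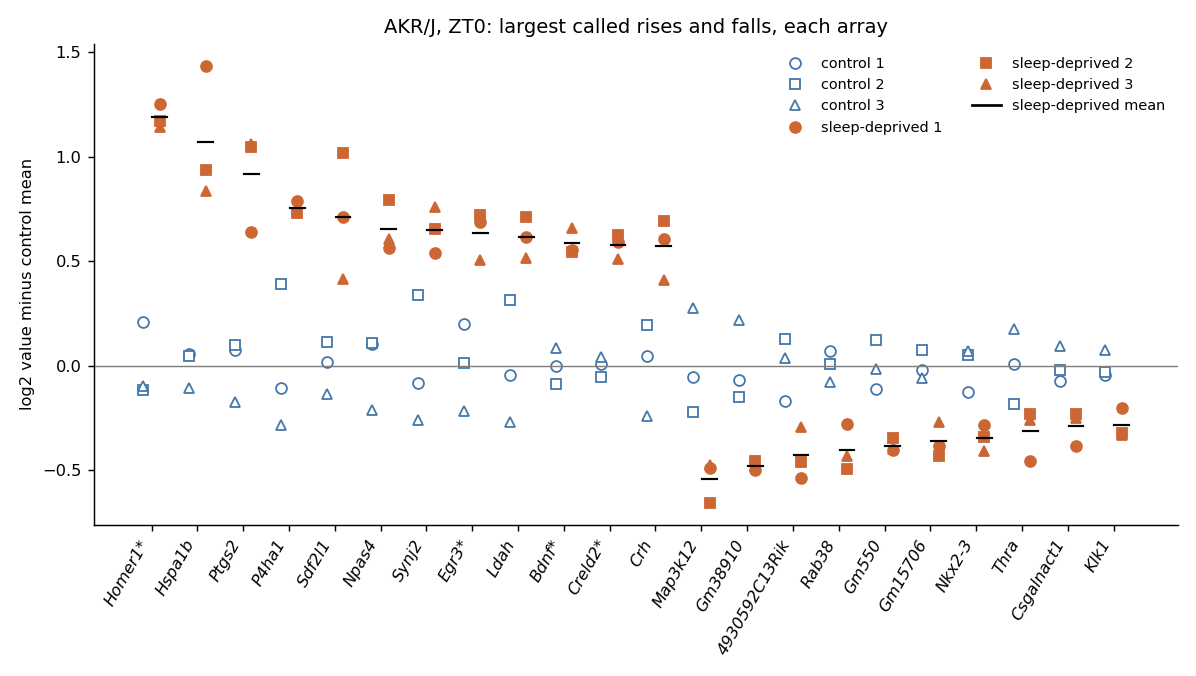
Each array's log2 value minus the mean of the 3 controls for the 12 genes with the largest called rises and the 10 named genes with called falls (open, control; filled, sleep-deprived; bar, sleep-deprived mean). Stars mark genes called with any 1 of the 6 arrays left out: Homer1, Egr3, Bdnf and Creld2, and none of the falls.

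The promoters shown are those of Homer1, the gene with the largest rise, of 3 ER chaperone genes, and of 2 neuroendocrine genes. The 3 chaperone genes kept their call with any 1 array left out and held the motif marked. Each is the RefSeq sequence before the start site (GRCm38.p6), 5′ to 3′ on the gene's strand. Capitals mark, for the chaperones, the ER stress element, a motif through which the unfolded protein response acts on promoters (on the other strand in Creld2). In Homer1 they mark TGACG, the core of the cyclic AMP response element (CRE), and in Dio2 and Scg2 the full element TGACGTCA. Homer1 has 2 RefSeq promoters, and only that with a match is shown. The matches start 65, 98 and 126 bases before the start in Hspa5, Pdia6 and Creld2, 56, 40 and 14 bases before it in Homer1, and 95 and 68 bases before it in Dio2 and Scg2.
Hspa5, chr2:34771940-34772089, + strand: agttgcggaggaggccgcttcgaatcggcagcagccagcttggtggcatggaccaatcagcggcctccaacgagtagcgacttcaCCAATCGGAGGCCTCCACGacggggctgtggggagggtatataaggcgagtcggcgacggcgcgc
Pdia6, chr12:17266439-17266588, + strand: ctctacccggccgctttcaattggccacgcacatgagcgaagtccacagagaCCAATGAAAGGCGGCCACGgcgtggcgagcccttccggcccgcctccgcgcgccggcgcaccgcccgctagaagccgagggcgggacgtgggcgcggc
Creld2, chr15:88819496-88819645, + strand: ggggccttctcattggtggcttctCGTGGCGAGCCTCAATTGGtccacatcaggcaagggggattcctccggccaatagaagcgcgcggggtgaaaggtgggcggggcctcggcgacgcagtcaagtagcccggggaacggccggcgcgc
Homer1, chr13:93303657-93303756, + strand: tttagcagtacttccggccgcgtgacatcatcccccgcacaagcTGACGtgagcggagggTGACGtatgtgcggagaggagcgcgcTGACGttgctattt
Dio2, chr12:90739039-90739188, - strand: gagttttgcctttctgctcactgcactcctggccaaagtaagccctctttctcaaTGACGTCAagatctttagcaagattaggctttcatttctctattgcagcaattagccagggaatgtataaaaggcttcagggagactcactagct
Scg2, chr1:79440027-79440176, - strand: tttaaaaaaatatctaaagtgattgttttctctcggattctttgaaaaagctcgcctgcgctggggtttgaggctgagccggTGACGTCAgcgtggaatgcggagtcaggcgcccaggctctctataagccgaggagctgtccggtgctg
The ER stress element was searched on both strands of the 250 bases before and 50 after each start. It was in 39 of 32851 promoters (0.119%), or 37 of 27025 genes (0.137%), and in 8 of the 20 listed ER chaperone genes with a promoter in the table (40%): Calr, Canx, Creld2, Dnajc3, Ero1b, Hsp90b1, Hspa5 and Pdia6. Of these 8, Canx, Dnajc3 and Ero1b were not called. Manf, which kept its call with any 1 array left out, was not among the 8. Of the 9 listed ER genes called on any probe set and matched to a promoter, 5 held the element. TGACGTCA was in 1.79% of promoters (2.03% of genes) and in 4 of 60 genes called higher (Dio2, Errfi1, Ldah and Scg2). TGACG, which TGACGTCA contains, was in 20.8% of promoters (23% of genes) and in 25 of these 60 genes (41.7%). Both shares varied among the pathway lists below that held no called gene with 1 probe set per gene. There TGACG was in 14.3% (GABA receptors) to 70% (complement and antigen presentation) of genes. TGACGTCA was in 0% to 13% (respiratory chain) of them, against 6.67% of the 60. The heat shock element, searched in the same way, was in 0.603% of promoters (0.662% of genes) and in 3 of the 60, Chordc1, Hspe1 and Hsph1. A match is a run of letters and not a shown binding site, and whether it bears on a rise was not tested.

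Homer1, a scaffold of the postsynapse whose short, activity-induced form is a known marker of sleep need, had the largest rise. On probe set 1436387_at it read 9.23, 8.91 and 8.93 in the controls and 10.27, 10.19 and 10.16 after sleep loss. The groups did not overlap, and the sleep-deprived arrays agreed to within 0.06 (SD, n = 3). The difference was 1.19 ± 0.11 (adjusted p = 4e-10), or 2.28-fold. A second probe set, 1425671_at, went from 4.48, 4.51 and 4.76 to 5.46, 5.24 and 5.5, a rise of 0.82 ± 0.14 (adjusted p = 0.0011). The other 4 Homer1 probe sets were not called, with differences of 0.13 to 0.16 and adjusted p of 0.39 to 0.67. The probe sets of Homer1 thus differed in size of response, and the annotation used here does not tie them to transcript forms.

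Of 27 measured immediate early transcription factors, 4 rose and none fell, 1 probe set per gene, against 0.214% higher and 0.044% lower (0.258% in all) among 18193 genes. The list median was 0.18 against -0.00 for all genes. Egr3, a zinc-finger factor induced by synaptic activity, read 10.06, 9.88 and 9.65 in the controls and 10.55, 10.58 and 10.37 after sleep loss. The rise was 0.64 ± 0.09 (adjusted p = 7.02e-05), with all 3 sleep-deprived arrays above all controls. Npas4, which neurons induce on calcium entry, rose by 0.65 (6.25, 6.25 and 5.93 to 6.71, 6.94 and 6.75; adjusted p = 0.0335). Crem, a factor that binds the CRE, rose by 0.54 (adjusted p = 0.006), and the AP-1 factor Fosl2 by 0.55 (adjusted p = 0.034). Without control replicate 3 only Egr3 of these 4 stayed called, and without both arrays that stood apart none did, while the list median was then 0.25. Egr2 was higher by 0.70 ± 0.18 and missed the threshold (adjusted p = 0.0971).

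The best-known members of this class were among those not called. Fos read 9.19, 8.83 and 9.12 in the controls and 9.21, 9.40 and 9.40 after sleep loss, a difference of 0.29 (95% interval -0.04 to 0.61; adjusted p = 0.525). Nr4a1, an orphan nuclear receptor, read 9.66, 9.38 and 9.81 against 9.73, 9.90 and 9.77, a difference of 0.18 (-0.08 to 0.44; adjusted p = 0.637). The Nr4a1 groups overlapped. The Fos groups did not, though the lowest sleep-deprived array, at 9.21, was just above the highest control, at 9.19. Egr1 differed by -0.16 (-0.42 to 0.09; adjusted p = 0.666).

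Of 37 measured activity-regulated synaptic and signalling genes, 3 rose and none fell (list median 0.17), against 0.214% higher and 0.044% lower among all genes. Bdnf, the neurotrophin that activity releases at synapses, read 7.60, 7.51 and 7.69 in the controls and 8.16, 8.15 and 8.26 after sleep loss. Its rise of 0.58 ± 0.10 (adjusted p = 0.0011) was called with any array left out. Ptgs2 (cyclooxygenase-2), the inducible enzyme of prostaglandin synthesis, rose by 0.92 ± 0.17 (adjusted p = 0.006), from 5.5, 5.53 and 5.25 to 6.07, 6.47 and 6.49. Scg2 (secretogranin II), a granule protein whose promoter is shown above, rose by 0.26 (adjusted p = 0.0128). Ptgs2 and Scg2 lost their calls without control replicate 3 (adjusted p = 0.0949 and 0.171). Ptgs2 also lost it without sleep-deprived replicate 2 (0.0721), and Scg2 without sleep-deprived replicate 1 (0.111). The list takes each gene's brightest probe set. On any probe set, Homer1 and Errfi1, a feedback inhibitor of the EGF receptor, were called too, 5 of 37 genes against 0.401% of all genes higher. Errfi1 rose by 0.41 ± 0.07 (adjusted p = 0.0024). Arc, which trims glutamate receptors from synapses, read 8.73, 8.25 and 9.01 in the controls and 8.76, 8.92 and 8.79 after sleep loss, a difference of 0.16 (95% interval -0.21 to 0.53; adjusted p = 0.793).

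The ER chaperones and folding enzymes held the largest share of called genes of any list. 7 of 23 rose and none fell (list median 0.14), against 0.214% higher and 0.044% lower among all genes. On any probe set 10 of 23 rose, against 0.401% of all genes. Hspa5, the ER's main Hsp70 chaperone, read 11.48, 11.39 and 11.35 in the controls and 12.09, 11.86 and 11.88 after sleep loss (probe set 1416064_a_at), a rise of 0.53 ± 0.07 (adjusted p = 2.45e-05). Manf, a secreted protein of the ER stress response, rose by 0.53 ± 0.08 (9.88, 9.92 and 10.07 to 10.57, 10.46 and 10.42; adjusted p = 7.02e-05). Creld2, also an ER stress protein, rose by 0.58 ± 0.08 (7.47, 7.41 and 7.51 to 8.06, 8.09 and 7.97; adjusted p = 7.02e-05). The groups lay apart by more than their own spread in all 3. Pdia6, a disulfide isomerase, rose by 0.54 ± 0.08 (9.16, 9.15 and 9.04 to 9.73, 9.61 and 9.60; adjusted p = 7.02e-05). Dnajb11, a cochaperone of Hspa5, rose by 0.41 (adjusted p = 0.006), Sdf2l1 by 0.71 (adjusted p = 0.0353) and the isomerase Pdia3 by 0.42 (adjusted p = 0.041). Through other probe sets, Hsp90b1 (Grp94) rose by 0.42 (adjusted p = 0.00434), the lectin chaperone Calr by 0.37 (adjusted p = 0.0353) and the oxidase Ero1a by 0.34 (adjusted p = 0.0296). Hspa5, Manf, Creld2 and Pdia6 kept their calls with any array left out, and 5 of 23 were called without both arrays that stood apart. Dnajb11 lost its call without control replicate 1 (adjusted p = 0.0702). Sdf2l1 lost it without any of 4 arrays (up to 0.363, without sleep-deprived replicate 2), as did Pdia3 (up to 0.424, without control replicate 3). Calr and Ero1a also each lost theirs without any of 4 arrays (up to 0.216 and 0.251, without control replicate 1). Hsp90b1 lost its call without control replicate 3 (0.0773) or sleep-deprived replicate 1 (0.0507).

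Of 25 sensors, effectors and degradation factors of the unfolded protein response, 3 rose and none fell (list median 0.07). Over all genes 0.214% rose and 0.044% fell. Xbp1, the transcription factor of this response, rose on 3 of its 4 probe sets, by 0.52, 0.45 and 0.41 (adjusted p = 3.07e-04, 0.00305 and 0.00907). On 1420011_s_at its values were 9.42, 9.42 and 9.40 in the controls and 10.03, 9.96 and 9.81 after sleep loss. Derl2 and Herpud1, which serve the removal of misfolded proteins from the ER, rose by 0.32 (adjusted p = 0.0209) and 0.26 (adjusted p = 0.0289). Sel1l, a partner in the same removal, was called on another probe set (0.44, adjusted p = 0.0439). Derl2 and Herpud1 each lost their call without any of 4 arrays (adjusted p up to 0.192 and 0.251, without control replicate 1). Sel1l lost it without any of 5 (up to 0.31, without sleep-deprived replicate 2). Without control replicate 3, sleep-deprived replicate 1 or both arrays that stood apart, none of the list's probe sets was called. The Xbp1 probe sets 1420011_s_at and 1420886_a_at, which the list did not use, still were (adjusted p = 0.0049 and 0.00906 without control replicate 3).

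Among 32 cytosolic chaperones of the heat shock response and their partners, 4 were called higher and 0 lower (list median 0.18). Over all genes the shares were 0.214% higher and 0.044% lower. Hspa1b, the inducible Hsp70, rose by 1.07 ± 0.22 on 1427127_x_at (adjusted p = 0.0128), from 7.34, 7.33 and 7.18 to 8.72, 8.22 and 8.12. That probe set's type can also bind related sequences, such as the near-identical copy Hspa1a. The list's own Hspa1b probe set, 1452318_a_at, rose by 0.98 (adjusted p = 0.0383). Chordc1, Stip1 and Dnaja1, cochaperones of Hsp90 and Hsp70, rose by 0.38, 0.40 and 0.24 (adjusted p = 0.0294, 0.0439 and 0.0365). Hsph1 and Hspe1 were called on other probe sets (0.36 and 0.34, adjusted p = 0.0209 and 0.0158). These calls were less robust to single arrays: the list had none without control replicate 1, control replicate 3 or sleep-deprived replicate 1, and 7 without control replicate 2. None of the list was called with the Gh level as a covariate or after quantile normalization, where its median was 0.17 in both fits.

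**Figure D3:**
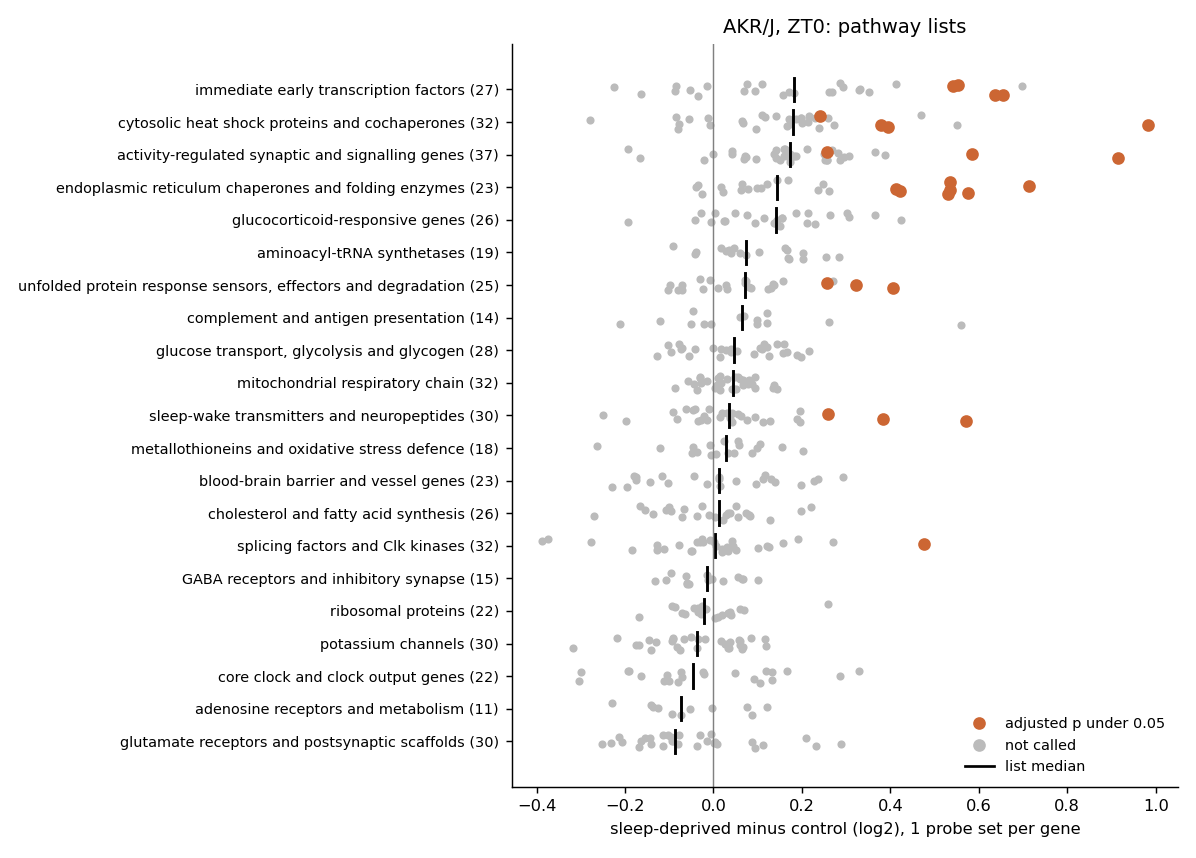
Log2 difference between sleep-deprived and control AKR/J at ZT0 for each measured gene of 21 pathway lists, 1 probe set per gene, with list medians as bars and called genes in colour; list sizes are in brackets. Called genes lie to the right in 7 lists, led by 7 of 23 ER chaperones and folding enzymes, and the other 14 lists have none.

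3 of 30 measured sleep-wake transmitters and neuropeptides rose and none fell (list median 0.03), against 0.214% higher and 0.044% lower among all genes. Crh, the hypothalamic trigger of the stress axis that also serves as a cortical neuropeptide, rose by 0.57 ± 0.11 (7.06, 7.21 and 6.78 to 7.62, 7.71 and 7.43; adjusted p = 0.00916). Nts (neurotensin) rose by 0.38 (adjusted p = 0.00382), and Vip, a peptide of interneurons and of the suprachiasmatic clock, by 0.26 (adjusted p = 0.0153). None of the 3 was called without control replicate 3 (adjusted p = 0.195, 0.0554 and 0.125) or without sleep-deprived replicate 2 (adjusted p = 0.116, 0.0829 and 0.175). Outside the lists, Dio2, the enzyme that activates thyroid hormone in the brain, rose on 2 probe sets, by 0.50 (adjusted p = 0.00916) and 0.42 (adjusted p = 0.0488). The first went from 7.67, 7.87 and 7.42 to 8.24, 8.03 and 8.19, and its call was lost without control replicate 3 (adjusted p = 0.205). Thra, a thyroid hormone receptor gene, was lower on 1443952_at (7.81, 7.62 and 7.98 against 7.35, 7.57 and 7.54; -0.31, adjusted p = 0.0151) and not called on its other 2 probe sets (-0.19 and -0.02).

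The other genes among the 12 largest rises were P4ha1, a collagen prolyl hydroxylase subunit (0.76, adjusted p = 0.0149), Synj2, an inositol phosphatase (0.65, adjusted p = 0.0397), and Ldah, a lipid droplet hydrolase (0.61, adjusted p = 0.0425). Each lost its call without control replicate 3 (adjusted p = 0.213, 0.335 and 0.359), without control replicate 1 (0.115, 0.2 and 0.191) and without sleep-deprived replicates 1 (0.059, 0.0611 and 0.104) and 2 (0.0681, 0.173 and 0.25). Synj2 and Ldah also lost it without sleep-deprived replicate 3 (0.172 and 0.0684). Srsf10, a splicing regulator, was the single called gene of 32 splicing factors and Clk kinases (0.47, adjusted p = 0.0209), against 0.258% of all genes called.

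The falls were smaller and named 10 genes. Map3k12 (DLK), a kinase of the neuronal injury response, fell by 0.54 (7.79, 7.63 and 8.12 to 7.36, 7.19 and 7.37; adjusted p = 0.046). Nkx2-3, a homeobox factor, fell by 0.34 (adjusted p = 0.0126), Csgalnact1, an enzyme of chondroitin sulfate synthesis, by 0.29 (adjusted p = 0.034), Rab38, a GTPase of vesicle traffic, by 0.40 (adjusted p = 0.0439), and the kallikrein Klk1 by 0.28 (adjusted p = 0.0488). The Rab38 and Klk1 probe sets are of the type that can bind related sequences. The others were Thra, described above, and the less characterised loci Gm38910, 4930592C13Rik, Gm550 and Gm15706, which fell by 0.36 to 0.48. Every 1 of these 10 lost its call without control replicate 3, with adjusted p from 0.0949 for Gm15706 to 0.406 for Map3k12. None was called in the other 5 comparisons set beside this one, apart from Gm15706 at ZT6 in AKR/J (-0.40).

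Clock genes were not called: 0 of 22 rose or fell with 1 probe set per gene (list median -0.05). Per2 read 6.96, 6.79 and 7.08 in the controls and 7.36, 7.13 and 7.19 after sleep loss (0.29, adjusted p = 0.249), Dbp was lower by 0.30 (adjusted p = 0.18), and Per1 differed by -0.19 (95% interval -0.51 to 0.12). The cold-inducible RNA-binding gene Cirbp read 7.52, 7.42 and 7.17 against 6.56, 7.43 and 7.01 (-0.37 ± 0.12, adjusted p = 0.18). Npas2, a partner of the clock factor Bmal1, was called on a probe set the list did not use (0.50, adjusted p = 0.0289). No member was called of the lists for glucocorticoid-responsive genes (26 measured, median 0.14), cholesterol and fatty acid synthesis (26, 0.01), glucose metabolism (28, 0.05), the respiratory chain (32, 0.04), tRNA synthetases (19, 0.07) or ribosomal proteins (22, -0.02). The same held for glutamate receptors (30, -0.09), GABA receptors (15, -0.01), potassium channels (30, -0.04), adenosine (11, -0.07), oxidative stress defence (18, 0.03), vessel genes (23, 0.01) and complement and antigen presentation (14, 0.07). On other probe sets, Bcl6 and Errfi1 of the glucocorticoid list and Kcnf1 and Kcnk1 of the potassium channels were called higher. None of the 13 lists of cell type and region markers had a called member. Apart from the pituitary, their medians lay between -0.05 for blood cells and 0.10 for oligodendrocyte precursors, and the mean level of the neuron list was 11.6 in each control and 11.5 to 11.6 after sleep loss.

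The same strain and procedure gave more calls at other times: 1164 probe sets at ZT6 (2.58%) and 772 at ZT12 (1.71%), but 0 at ZT18 (0% called, limma; 1545 at an unadjusted p under 0.05), where the sleep-deprived group held 2 arrays. No array is shared between these comparisons. Of the 97 probe sets, 60 were also called in the same direction at ZT6 (61.9% of the 97 and 5.15% of those at ZT6) and 52 at ZT12 (53.6% and 6.74%). None was called in the opposite direction, and 93 had the same sign at ZT6. Homer1 on 1436387_at differed by 2.25 at ZT6, 2.73 at ZT12 and 0.54 at ZT18 (adjusted p = 0.737 for the last), and Hspa5 by 1.02 at ZT6. The list counts at ZT6 were 14 of 27 immediate early factors, 20 of 37 activity-regulated genes, 19 of 32 heat shock genes and 11 of 23 ER chaperones, all higher, against 2.15% of all genes higher at that time with 1 probe set per gene.

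The difference between the effects at ZT0 and ZT6 was itself tested. 9 probe sets passed (0.02%), all with the smaller change at ZT0. Arc rose by 1.68 at ZT6 and differed by 0.16 at ZT0, a difference of -1.52 ± 0.26 (adjusted p = 0.00347). For Fos the effects were 1.57 and 0.29 (adjusted p = 0.00744), and for Nr4a1 1.12 and 0.18 (adjusted p = 0.0347). For Homer1 on 1436387_at they were 2.25 and 1.19 (adjusted p = 2.92e-04). On 1425671_at, also called at ZT0, Homer1 rose by 1.05 at ZT6 and 0.82 at ZT0. That difference, -0.23 (95% interval -0.62 to 0.16), was not called. Fos, Arc and Homer1 on 1436387_at kept the call for the difference with any of the 6 ZT0 arrays left out. Fos lost it without the 6 arrays apart on control probe sets (adjusted p = 0.0558), and Arc in a fit of AKR/J arrays only (adjusted p = 0.0527). Nr4a1 lost it without control replicates 1 or 3 or sleep-deprived replicates 1 or 3 (adjusted p = 0.0654 to 0.152), and without both arrays that stood apart (0.173). None of the 23 ER chaperones and folding enzymes was called different, and Hspa5 differed by -0.48. Arc read 6.63, 6.58 and 7.34 in the controls at ZT6 and 8.54, 8.59 and 8.47 after sleep loss. Its mean was 1.81 higher in controls at ZT0 than in controls at ZT6, and 0.29 higher in sleep-deprived mice at ZT0 than at ZT6. For Fos these values were 1.68 and 0.39, for Nr4a1 1.32 and 0.38 and for Homer1 on 1436387_at 1.11 and 0.05. They were 0.53 and 0.05 for Hspa5 and 0.49 and 0.05 for Egr3. Over the 27 immediate early factors the medians were 0.27 in controls and 0.08 after sleep loss, against -0.00 and -0.00 over all genes. These values restate the difference between the effects, since the sleep-deprived value minus the control value is that difference. Time of day and the arrays of each time cannot be told apart here.

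**Figure D4:**
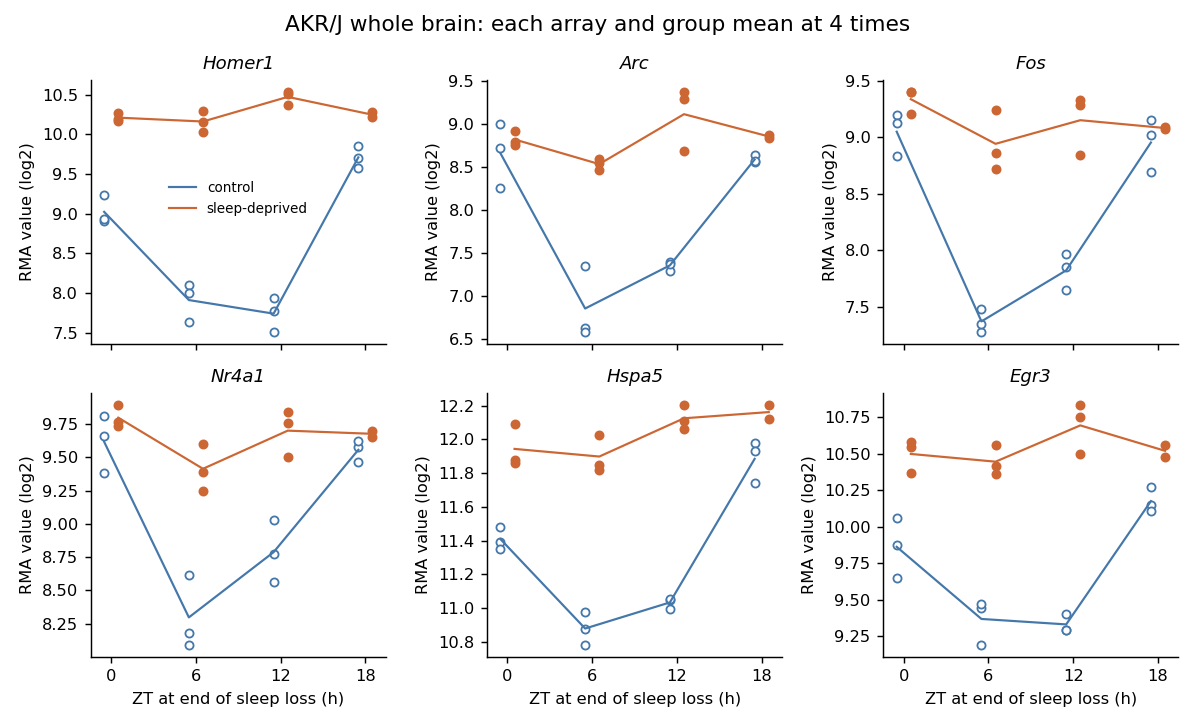
Log2 values of 6 genes in every AKR/J array against the ZT at which sleep loss ended (open, control; filled, sleep-deprived; lines join group means). At ZT0 the groups lie apart for Homer1, Hspa5 and Egr3, barely so for Fos (9.19 against 9.21), and overlap for Arc and Nr4a1. The control means of Arc, Fos and Nr4a1 are 1.32 to 1.81 higher at ZT0 than at ZT6.

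**Figure D5:**
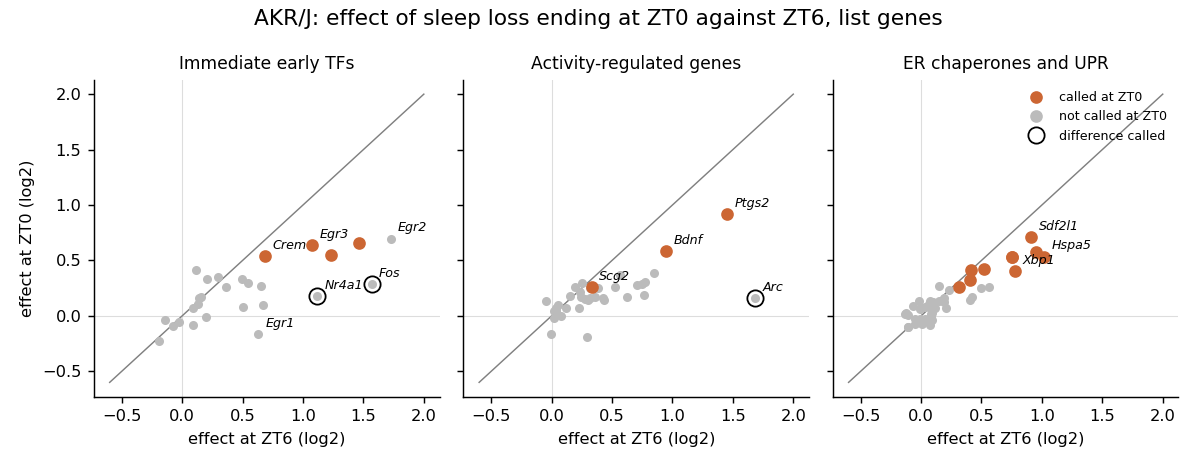
Effect of sleep loss at ZT0 against that at ZT6 (log2, AKR/J) for the measured genes of 4 lists, at the brightest probe set of each gene, with the line of equal effects. Fos, Nr4a1 and Arc, circled, are the plotted genes whose difference between the times was called, and called ER genes reach 0.71 at ZT0.

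Against the mean effect of AKR/J at the other 3 times, no probe set was called different (limma, 0% called; lowest adjusted p 0.156, 2827 at an unadjusted p under 0.05). The smallest p-values were those of Arc (-1.08 ± 0.21, adjusted p = 0.156) and Homer1 (-0.65 ± 0.13, adjusted p = 0.156), smaller at ZT0, and of the kinesin Kif1c (0.64, adjusted p = 0.175) and the nucleoporin Seh1l (0.56, adjusted p = 0.175), larger at ZT0.

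In the other strains at ZT0, 149 probe sets were called in C57BL/6J (0.331%) and 50 in DBA/2J (0.111%). Of the 97 in AKR/J, 35 were called in the same direction in C57BL/6J (36.1% of the 97, 23.5% of the 149) and 17 in DBA/2J (17.5% and 34%), none in the opposite one. Homer1 rose by 1.19 in C57BL/6J and 0.97 in DBA/2J, against 1.19 in AKR/J. Creld2 rose by 0.79 and 0.42 against 0.58, and Egr3 by 0.46 and 0.48 against 0.64. Ptgs2 differed by 0.47 and 0.10 against 0.92, and neither of the former was called (adjusted p = 0.42 and 0.93). ER chaperones called higher numbered 9 of 23 in C57BL/6J, against 0.286% of all genes, and 5 of 23 in DBA/2J, against 0.137%. The difference between the AKR/J effect and the mean of the other strains passed for no probe set (limma, 0% called; lowest adjusted p 0.519, 2627 at an unadjusted p under 0.05). The smallest p-values were those of Svs6 (-0.39), Cep68 (0.48), Rnf41 (0.51) and Tubb4b (-0.29), each at an adjusted p of 0.519. 36 of the 97 probe sets were called in none of the other 5 comparisons, 24 higher and 12 lower, and this count does not show that they differed between strains or times.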

How the data were processed

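RNA of 71 pools was measured on Affymetrix mouse arrays. The deposited values are log2 expression per probe set made by the authors with RMA, per the submitters' processing notes, which combines background correction, quantile normalization and probe summary. Raw intensities were not used here, so no probe could be called above background. Of 45101 probe sets, 64 array controls were left out. Among the 45037 tested, 34945 had 1 gene symbol in the platform annotation, 932 several and 9160 none.

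limma was run on all 71 arrays with 1 mean for each of the 24 groups (version 3.58.1, R 4.3.3, 47 residual degrees of freedom), so the spread comes from the whole study. Contrasts gave the AKR/J effect at ZT0 and its difference from the effects at ZT6, at the other times and in the other strains. p-values were adjusted over all probe sets (Benjamini-Hochberg), and an adjusted p under 0.05 is a call. The scripts were tested on simulated data.

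Lists took 1 probe set per gene, that with the highest mean. Named were the 12 largest rises and falls among called genes, all Homer1 and pituitary probe sets, up to 4 members per list by smallest p, and up to 8 genes per difference (4 where none was called). Other genes, such as Xbp1, Dio2, Errfi1, Npas2, Kif1c, Egr1, Nr4a1, Per1, Arc and Fos where outside that rule, were named after their values were seen. The members and lists were chosen with earlier results of these data known.

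Replicate numbers were checked for pairing. Deviations of same-numbered arrays correlated at 0.069, 0.106 and 0.087, not all over 0.1, so samples were not treated as pairs. All were positive and were not set beside those of different-numbered arrays, so the check does not exclude pairing. Alternatives were other normalizations, filters and variance models, each array left out, the replicate block, and, chosen after the data were seen, the fits for the arrays that stood apart.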

Additional observations from a re-analysis of the deposited data

Results flagged for a closer look

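The effect of sleep loss in AKR/J differed between ZT0 and ZT6 for 9 probe sets by the test of that difference (limma, adjusted p under 0.05). The differences below are the ZT0 effect minus the ZT6 effect on the log2 scale.

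4 concern genes of neuronal activity. Arc differed by -1.52 (effect 0.16 at ZT0 and 1.68 at ZT6), Fos by -1.28 (0.29 and 1.57) and Nr4a1 by -0.94 (0.18 and 1.12). Homer1 differed by -1.06 on 1436387_at (1.19 and 2.25). On 1425671_at the Homer1 difference was -0.23 (0.82 and 1.05) and was not called.

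Probe set 1442570_at, which has no gene symbol in the annotation, differed by -1.31 (0.22 and 1.53; adjusted p = 2.15e-05). Trim9, a ubiquitin ligase of neurons, differed by -0.47 on 1434595_at (0.20 and 0.67; adjusted p = 0.00347). P4ha1 differed by -0.58 on 1452094_at (0.24 and 0.82; adjusted p = 0.0078). The P4ha1 call was lost without control replicate 2 (adjusted p = 0.0578), sleep-deprived replicate 3 (0.0676) or both arrays that stood apart (0.0702).

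The other two had falls at ZT6. Usp2, a deubiquitinase under clock control, differed by 0.54 (0.02 at ZT0 and -0.52 at ZT6; adjusted p = 0.0347). The Usp2 call was lost without control replicates 1 or 2 (adjusted p = 0.155 for each) or sleep-deprived replicates 2 or 3 (0.235 and 0.093). The mitochondrial ribosome gene Mrpl15 differed by 0.83 on 1430798_x_at (-0.10 and -0.92; adjusted p = 0.0433). Its group means at ZT0 and ZT6, 4.44 to 5.36, lay below the array medians, and the probe set is of the type that can bind related sequences. The Mrpl15 call was lost without control replicates 1 or 2 (adjusted p = 0.129 and 0.155) or sleep-deprived replicates 2 or 3 (0.101 and 0.194). It was also lost without the 6 arrays apart on control probe sets (0.0531) or both arrays that stood apart (0.0582).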

How the results depend on the processing

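The 97 calls changed to 45 with quantile normalization, 170 among probe sets above the median level, 147 with array weights, 58 with 1 probe set per gene, 39 with AKR/J arrays only, 1 with only the 6 arrays compared and 3 when these were fitted with the replicate block. They were 57 with the 6 arrays apart on control probe sets as a block and 55 without those 6. They were 16 without both arrays that stood apart and 49 with the Gh level as a covariate. They ranged from 16 to 382 with each array left out, and were 109, 137 and 95 with centred arrays, a variance trend and a minimum change of 0.25. For the difference from ZT6, the 9 calls became 34 with array weights, 5 with 1 probe set per gene and 3 with AKR/J arrays only (Homer1, Fos and 1442570_at). They became 16 with the block of arrays apart on control probe sets and 14 with the Gh covariate. With each array left out they ranged from 5 to 17. For the difference from the other times, the count of 0 became 2 with array weights and 3 with the block of arrays apart on control probe sets. It ranged from 0 to 2 with each array left out. The difference from the other strains had 0 calls in every fit. Over the named genes, leave-one-out aside, 2335 gene and setting pairs kept their side of the threshold, 248 lost the call and 19 gained it. Where the main fit made a call, 0 reversed direction. Direction was not compared where it made none. The filtered and restricted fits tested fewer probe sets or used fewer arrays. For the others the cause was not tested. The fits for the 6 arrays apart on control probe sets, on Gh and without both arrays were chosen after seeing the data.

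With the replicate block, 106 probe sets were called at ZT0, 6 for the difference from ZT6 and 1 for the difference from the other times (Homer1). Among the 9 calls for ZT6, those of Fos, P4ha1, Nr4a1 and Usp2 were lost with that block (adjusted p = 0.106, 0.106, 0.213 and 0.254). The numbers did not pair the arrays by the check used. Listed pathway genes called numbered 25, and 37 with either the mean of a gene's probe sets or its smallest p.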
